A study of Homo sapiens with 54 samples.

Results

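The genes described here are 10 chemokines, CCL20, CXCL1, CXCL2, CXCL3, CXCL5, CXCL8, CXCL10, CXCL16, CCL2 and CCL5, matched by symbol in a table of 27470 genes. They were chosen by name, as attractants of white blood cells, by a rule that uses no measured value, though earlier results of these data were known. SUM1315 carries a mutant BRCA1 gene and MDA-MB-468 a wild type one, and both are established lines of triple-negative breast cancer (TNBC), the form that lacks the oestrogen, progesterone and HER2 receptors. The study asked how the PARP inhibitor olaparib, the DNA-crosslinking drug cisplatin (CDDP) and acquired resistance to olaparib changed the transcripts of each line.

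In each line, 9 conditions were profiled with 3 libraries each, 54 libraries in all. The 6 parental conditions were untreated cells (control), olaparib alone (8 µM in SUM1315, 3 µM in MDA-MB-468), CDDP alone at a lower and a higher dose (2 and 4 µM in SUM1315, 1 and 2.5 µM in MDA-MB-468), and olaparib with each CDDP dose. The other 3 conditions were the olaparib resistant derivatives (OlaR), which were always kept in olaparib (25 µM for SUM1315, 15 µM for MDA-MB-468), without CDDP and with each dose. No OlaR culture was free of olaparib and its concentration was above that given to parental cells, so resistance and olaparib exposure cannot be told apart. OlaR cells were grown out of each line by stepwise exposure over months, are not described as single clones, and stand for 1 derivation per line. Nothing says that the 3 libraries of a condition came from separate cultures, so the p-values measure the spread between these libraries.

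Chemokines are small proteins that steer cells bearing the matching receptor. CXCL1, CXCL2, CXCL3, CXCL5 and CXCL8 (interleukin-8) carry the ELR motif, act through CXCR2 and draw neutrophils. CCL20 draws CCR6-bearing lymphocytes and dendritic cells, CXCL10 (through CXCR3) and CCL5 draw T and NK cells, CCL2 draws monocytes through CCR2, and CXCL16 is made as a membrane-bound protein that is shed and binds CXCR6. In epithelial tumour cells many of these genes are switched on by NF-κB, which is activated by TNF, interleukin-1, interleukin-17 with TNF, and DNA damage, while CXCL10 and CCL5 also respond to interferon signalling.

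On the human genome (GENCODE release 44, GRCh38), the CXCR2 ligand genes and CXCL10 lie on chromosome 4, CXCL8 at chr4:73740519-73743716 and CXCL1 at chr4:73869393-73871308 on the plus strand, and CXCL5 at chr4:73995642-73998677, CXCL3 at chr4:74036589-74038807, CXCL2 at chr4:74097040-74099196 and CXCL10 at chr4:76021118-76023497 on the minus strand. CCL20 lies at chr2:227805739-227817564 on the plus strand. On chromosome 17, CXCL16 lies at chr17:4733533-4739928 on the minus strand, CCL2 at chr17:34255274-34257208 on the plus strand and CCL5 at chr17:35871491-35880793 on the minus strand.

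The promoter stretches of 6 of the genes are shown because one κB sequence, the letters that NF-κB dimers are known to bind, recurs in them. RefSeq promoters (GRCh38.p14, 250 bases before to 50 after the start) were matched for 7 of the 10 genes, and were searched on both strands for GGAATTTCC, which 0.461% of 35116 promoters held. It was found in CXCL1, CXCL2, CXCL3, CXCL5, CXCL8 and, on the opposite strand, CXCL10, and these letters were not in the CCL20 window. Only these exact letters were searched, so κB sequences of other spelling, in CCL20 or elsewhere, were not looked for. Each stretch of 29 bases reads 5′ to 3′ on the gene's strand, with the match in capitals:
CXCL1 (chr4:73869305-73869333, plus strand): tggaactccgGGAATTTCCctggcccggg
CXCL2 (chr4:74099254-74099282, minus strand): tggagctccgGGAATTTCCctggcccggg
CXCL3 (chr4:74038749-74038777, minus strand): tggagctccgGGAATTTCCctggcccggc
CXCL5 (chr4:73998749-73998777, minus strand): atgagttcagGGAATTTCCccagcatccc
CXCL8 (chr4:73740468-73740496, plus strand): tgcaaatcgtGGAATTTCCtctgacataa
CXCL10 (chr4:76023655-76023683, minus strand): aggagcagagGGAAATTCCgtaacttgga

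The first base of the match stood 78 bases before the start in CXCL1 and CXCL3, 77 in CXCL2, 90 in CXCL5, 91 in CXCL8 and 176 in CXCL10. The CXCL2 stretch was identical to those of CXCL1 and CXCL3 at 28 of 29 bases each, whereas the CXCL8 and CXCL10 stretches were identical to each other at 11 of 29. An AP-1 sequence (TGANTCA, held by 7.71% of promoters) was found in CXCL8 137 bases before the start, and an interferon response sequence (GAAA, any 2 bases, then GAAA again; 3.57% of promoters) in CXCL10 221 bases before it. These matches describe sequence, and no binding was measured. CXCL1, CXCL2 and CXCL3 also shared a smaller part of their transcripts: of all 50-base stretches in the last 500 bases of their annotated transcripts, 6.65% of those of CXCL1, 16.2% of those of CXCL2 and 5.38% of those of CXCL3 were shared with another of the 3 genes, so part of their reads could not be assigned with certainty. CCL20, CXCL5, CXCL8, CXCL10 and CCL2 shared none with any other gene, CXCL16 shared 1.07% and CCL5 10.3%, the latter with 129 other genes.

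Levels are given as adjusted read counts, that is, reads per gene scaled by the authors within each condition to a common library of 5585170 reads. They come from 3′ end sequencing. SUM1315 libraries held 4977284 to 7540920 reads in parental and 3446613 to 4665505 in OlaR cells, and MDA-MB-468 libraries held 5574767 to 9268162 and 2070301 to 4676284, so low levels are least certain in OlaR cells. Within each line every OlaR library was shallower than every parental one. Which libraries shared a sequencing batch is not stated, so a batch and resistance cannot be told apart. EPCAM, CDH1 and KRT19 marked MDA-MB-468 (EPCAM 2631 to 3793) and had a median of 0 in SUM1315, which instead held VIM at 7929 to 13246. Of 8 leukocyte markers, 6 had a median of 0 in SUM1315, PTPRC, CD3E and LYZ among them, while CD68 had a median of 4.95 (reads in 23 of 27 libraries) and ITGAM of 1.75 (17 of 27). In MDA-MB-468 the highest of their medians was 0.772, for CD68. Fewer expressing cells and less RNA per cell cannot be told apart in such bulk samples.

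Of the 10 genes, 9 passed the limit of an adjusted read count of 10 in at least 3 libraries in SUM1315, and 2, CXCL8 and CXCL16, in MDA-MB-468. CXCL5 was read in 9 of 27 SUM1315 libraries, with at most 6 reads, and in 1 of 27 MDA-MB-468 libraries, so it was not tested.

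CXCL1, a CXCR2 ligand, had the largest log2 fold change with 4 µM CDDP of the 9 genes tested in SUM1315. Its adjusted read counts were 604, 702 and 423 in control, 1944, 1922 and 2026 at 2 µM CDDP, and 3602, 4045 and 3582 at 4 µM. With olaparib they were 314, 329.7 and 351 alone, 622, 641 and 704 with 2 µM CDDP, and 1586, 1623 and 1606 with 4 µM. In OlaR cells they were 1169.7, 1089 and 1093 alone, 2082, 2285 and 2130.2 with 2 µM CDDP, and 2399.7, 2255 and 2097 with 4 µM. Every parental series stepped up with dose without overlap, whereas the CDDP doses overlapped in OlaR cells. Ordered by mean log2 level, 6 of the 8 pairs of neighbouring conditions did not overlap, the most of any gene of the set.

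CXCL3 had its highest levels in parental cells. It stood at 1273, 1118 and 803 in control, 1849, 1722 and 2017 at 2 µM CDDP, and 3469, 3644 and 3345 at 4 µM. With olaparib it was 756, 766 and 639.5 alone, 1181, 959.7 and 1243 with 2 µM CDDP, and 2764, 2319 and 2027 with 4 µM. In OlaR cells it was 553, 608 and 600.0 alone, 868, 802 and 917 with 2 µM CDDP, and 1046, 1079 and 1087 with 4 µM. The OlaR libraries at the top dose thus lay within the range of the untreated parental libraries.

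CXCL2, whose promoter stretch is nearly identical to those of CXCL1 and CXCL3, moved over a narrower range. It was 1495, 1695 and 754 in control, where the third library stood well below the others, and 814, 1118 and 824 with olaparib. It was 2199, 2548 and 2279 at 4 µM CDDP and 2119, 2119.9 and 2050.1 with olaparib and 4 µM CDDP. In OlaR cells it was 1324, 1133 and 1132 alone and 1858, 1698 and 1568 with 4 µM CDDP. That control library was also the lowest of its condition for CXCL1, CXCL3, CXCL8, CXCL10, CXCL16, CCL2 and CCL20, and the tests that turn on it are named below. Over all genes it stood apart from the other control libraries, the chi-square of its reads divided by the degrees of freedom being 13.9 and 18.4 against them and 3.45 between those. At 2 µM CDDP, where the values were 20.6, 9.35 and 6.90, the libraries also differed more than in most conditions.

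CXCL8 was lowest in parental cells given olaparib and highest in OlaR cells. It was 4340.1, 4702 and 3536 in control, 5736, 4306 and 5460.1 at 2 µM CDDP, and 7617, 9797 and 9185 at 4 µM. With olaparib it was 1601, 1710.3 and 1181 alone, 2081, 1517 and 2291 with 2 µM CDDP, and 6744, 5603 and 4735 with 4 µM. In OlaR cells it was 7429.6, 6569 and 8095 alone, 9236, 9808 and 9667 with 2 µM CDDP, and 12265, 10931 and 10292 with 4 µM. The lowest OlaR library (6569) stood above every parental library except those at 4 µM CDDP and 1 of those with olaparib and 4 µM CDDP.

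CCL20, the CCR6 ligand, was a gene of modest level. It was 28.4, 61.8 and 22.9 in control, 89.8, 92.3 and 89.5 at 2 µM CDDP, and 158, 141 and 119.8 at 4 µM. With olaparib it was 73.5, 109.9 and 81.9 alone, 75.8, 45.7 and 107 with 2 µM CDDP, and 283, 222 and 206 with 4 µM. In OlaR cells it was 35.3, 28.7 and 33.4 alone, 52.5, 60.0 and 50.6 with 2 µM CDDP, and 119.8, 72.1 and 70.6 with 4 µM. Its highest condition was olaparib with 4 µM CDDP and its lowest means were OlaR and control, whose libraries overlapped.

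CXCL10, a CXCR3 ligand induced by interferons, separated parental from OlaR cells. In parental cells it was 1197, 938 and 863 in control, 1073, 1064 and 1167 with olaparib, 757, 761 and 632 at 4 µM CDDP, and 1191, 1408 and 1455 with olaparib and 4 µM CDDP. In OlaR cells it was 150.3, 161 and 162 alone, 120.4, 164 and 108 with 2 µM CDDP, and 159, 106 and 155 with 4 µM. All 9 OlaR libraries (106 to 164) lay below all 18 parental libraries (632 to 1455).

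CCL2, the CCR2 ligand, was nearly absent from OlaR cells. In parental cells its adjusted read counts were 44.4, 40.3 and 17.8 in control, 45.5, 58.9 and 68.0 with olaparib, 103, 116 and 94.2 at 2 µM CDDP, and 71.8, 46.4 and 49.3 at 4 µM CDDP. With olaparib they were 62.5, 84.1 and 71.5 at 2 µM CDDP and 53.6, 55.1 and 57.7 at 4 µM CDDP. In OlaR cells its reads were 0, 1 and 0 alone, 0, 4 and 8 with 2 µM CDDP, and 0, 3 and 0 with 4 µM. The highest OlaR library (adjusted 10.3) stood below the lowest parental library (17.8).

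CCL5, which draws T cells, stayed within 394 and 934 over all 27 SUM1315 libraries. It was 411, 394 and 441 in control, 509, 597 and 708 with olaparib, 663, 621 and 649 at 4 µM CDDP, 812, 784 and 772 with olaparib and 4 µM CDDP, and 418, 456 and 419 in OlaR cells. CXCL16 stood at 55.3, 45.5 and 24.0 in control, 27.4, 17.4 and 15.8 at 2 µM CDDP, 25.6, 30.8 and 30.1 in OlaR cells, and 61.5, 49.3 and 47.9 in OlaR cells with 4 µM CDDP. For CXCL16, 7 of the 8 neighbouring pairs overlapped, so most of its order was not resolved.

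**Figure D1:**
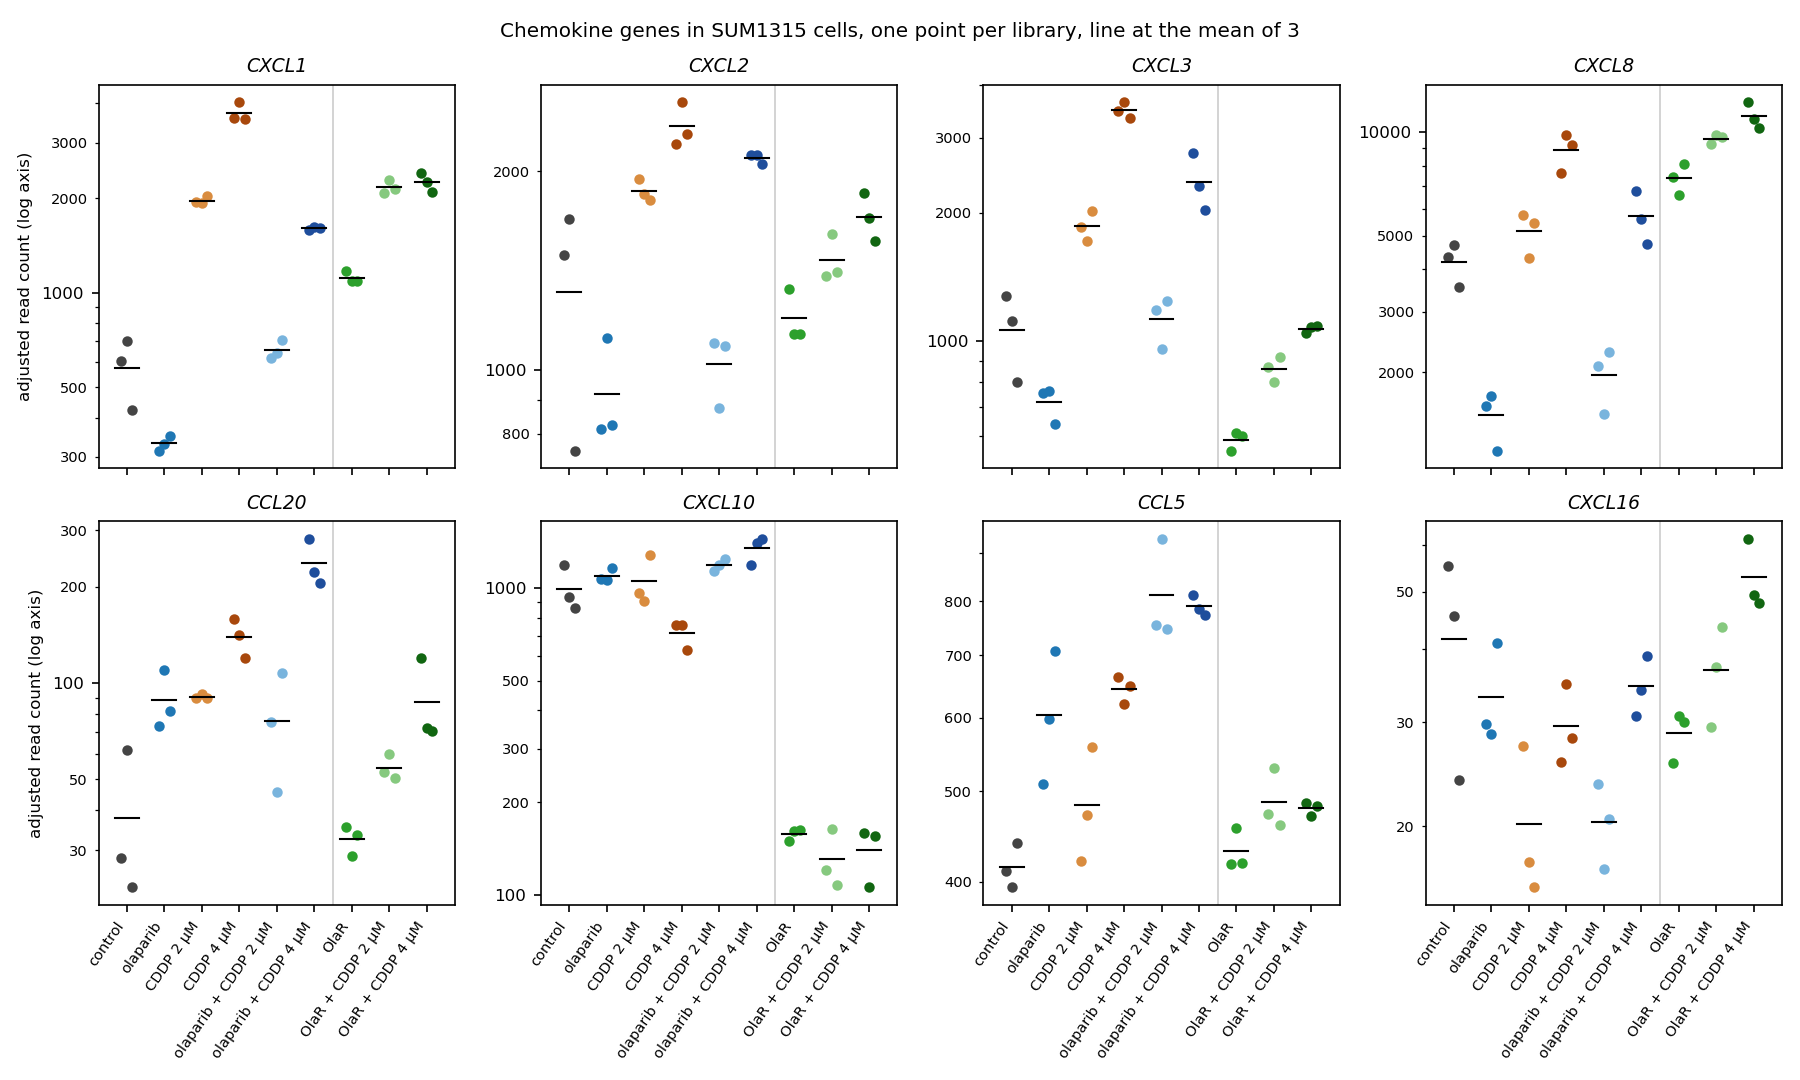
Adjusted read counts of 8 chemokine genes (log axis, 1 panel per gene with its own scale) in the 9 conditions of SUM1315, 1 point per library with a line at the mean of 3; the grey line separates parental from OlaR cells. For CXCL1, CXCL2, CXCL3 and CXCL8 all libraries at 4 µM CDDP alone lie above all control libraries, and the OlaR libraries of CXCL10 (106 to 164) sit below all parental ones.

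The first comparison asked how CDDP alone changed the genes in parental SUM1315 cells. A gene was called a differentially expressed gene (DEG) when limma's moderated test gave a Benjamini-Hochberg adjusted p of at most 0.05 over all 13133 genes tested and a fold change of at least 2 on the log2(adjusted read count + 1) scale, which understates changes of low genes. At 4 µM CDDP, 4 of the 9 genes were called, all higher, against 15.4% of all genes tested. CXCL1 rose 6.61-fold (log2 fold change 2.73, SE 0.11, adjusted p = 2.21e-19), CCL20 rose 3.95-fold (1.98, SE 0.28, adjusted p = 6.89e-07), CXCL3 rose 3.33-fold (1.74, SE 0.12, adjusted p = 4.13e-13) and CXCL8 rose 2.12-fold (1.08, SE 0.15, adjusted p = 2.68e-07). CXCL8 fell under the fold limit without control replicate 3 (log2 fold change 0.96). CXCL2 had a log2 fold change of 0.91 (adjusted p = 3.26e-05) and met the fold limit when either of the other controls was left out (1.05 without replicate 1, 1.14 without replicate 2). CCL5 (0.63) and CXCL10 (−0.47) had adjusted p-values of 2.54e-05 and 0.011, below the fold limit. The libraries of 8 of the 9 genes did not overlap between the groups, as was the case for 52.8% of all genes.

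At 2 µM CDDP, 3 of the 9 genes were called, all higher, against 8.79% of all genes. CXCL1 rose 3.48-fold (log2 fold change 1.80, SE 0.11, adjusted p = 2.82e-14) and CCL20 rose 2.59-fold (1.37, SE 0.28, adjusted p = 0.000254). CCL2 rose 3.21-fold (1.68, SE 0.53, adjusted p = 0.0137), a call that was lost without control replicate 3 (1.28, adjusted p = 0.102). CXCL3 (0.83) and CXCL2 (0.59) had adjusted p-values of 2.88e-06 and 0.00564 without reaching the fold limit. CXCL16 was at −0.97 (adjusted p = 0.0116) and passed the fold limit without control replicate 3 (−1.31) or without CDDP replicate 1 (−1.20).

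Olaparib alone was the second comparison. Of the 9 genes, 1 was higher and 1 lower, against 9.35% of all genes called in either direction. CCL20 rose 2.49-fold (log2 fold change 1.32, SE 0.28, adjusted p = 0.000354). CXCL8 fell by 1.49 on the log2 scale (SE 0.15, adjusted p = 7.89e-10), from a mean of 4193 ± 597 to 1497 ± 279 (SD, n = 3 each). The other CXCR2 ligands also lay lower under olaparib without reaching the fold limit, CXCL1 by −0.77 (adjusted p = 1.39e-06), CXCL3 by −0.54 (adjusted p = 0.000784) and CXCL2 by −0.45 (adjusted p = 0.0324). CCL5 stood higher by 0.53 (adjusted p = 0.000346), also under 2-fold. Olaparib thus went with opposite directions in CCL20 and CXCL8, both of which rose with 4 µM CDDP.

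The third comparison added CDDP to olaparib. With 4 µM CDDP against olaparib alone, 5 of the 9 genes were called, all higher, against 1.32% of all genes, and the libraries of 7 did not overlap, against 28.2% of all genes. CXCL1 rose 4.84-fold (log2 fold change 2.27, SE 0.11, adjusted p = 3.51e-16), CXCL8 rose 3.81-fold (1.93, SE 0.15, adjusted p = 2.14e-11), CXCL3 rose 3.27-fold (1.71, SE 0.12, adjusted p = 8.72e-12), CCL20 rose 2.67-fold (1.42, SE 0.28, adjusted p = 0.00112) and CXCL2 rose 2.31-fold (1.20, SE 0.17, adjusted p = 6.81e-06). CXCL10 (0.29), CXCL16 (0.07) and CCL2 (−0.03) did not pass, and CCL5 was at 0.40 (adjusted p = 0.023). These 5 genes are the 4 tested CXCR2 ligands and the CCR6 ligand.

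With 2 µM CDDP against olaparib alone, limma called none of the 9 genes, against 0.495% of all genes, while 5 had an unadjusted p under 0.05 and limma voom on the reads also called none. CXCL1 stood just under the fold limit (log2 fold change 0.98, adjusted p = 9.95e-07) and passed it without olaparib replicate 3 or without combination replicate 1 (1.02 each). CXCL3 was at 0.64 (adjusted p = 0.00265) and CCL5 at 0.43 (adjusted p = 0.0265). CCL20 was at −0.27, with a 95% confidence interval from −0.84 to 0.30.

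When olaparib with 4 µM CDDP was set against 4 µM CDDP alone, 1 gene was called, against 2.56% of all genes. CXCL1 fell by 1.22 on the log2 scale (SE 0.11, adjusted p = 2.37e-09), from 3743 ± 262 to 1605 ± 18.5. CXCL8 (−0.65, adjusted p = 0.00247) and CXCL3 (−0.57, adjusted p = 0.0018) lay lower within 2-fold, and CXCL10 lay higher (0.91, adjusted p = 7.27e-05), passing the fold limit without combination replicate 1 (1.00). CCL20 was at 0.75 (adjusted p = 0.0738). A test of whether the change with 4 µM CDDP differed with olaparib called 3 of the 9 genes at an adjusted p of at most 0.05, with no fold limit, against 21.5% of all genes. The rise of CXCL8 was larger with olaparib by 0.85 (SE 0.21, adjusted p = 0.00278). For CXCL10 the difference was 0.76 (SE 0.21, adjusted p = 0.00889), from −0.47 without olaparib to 0.29 with it. The response of CXCL1 was smaller by 0.45 on the log2 scale (difference −0.45, SE 0.16, adjusted p = 0.0356), and this call was lost in 7 of 12 fits without 1 library, being −0.24 (adjusted p = 0.167) without control replicate 3. The same fit without control replicate 3 called CXCL2 (0.65, adjusted p = 0.00283, against 0.29 with all libraries).

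Acquired resistance was examined as OlaR cells against parental cells given olaparib. Of the 9 genes, 2 were higher and 3 lower, against 16.6% of all genes called, and 8 did not overlap between the groups, against 55.6% of all genes. CXCL8 rose 4.96-fold (log2 fold change 2.31, SE 0.15, adjusted p = 1.18e-14) and CXCL1 rose 3.37-fold (1.75, SE 0.11, adjusted p = 1.29e-14). CXCL10 fell by 2.79 on the log2 scale (SE 0.15, adjusted p = 2.03e-16), from 1102 ± 57.0 to 158 ± 6.66. CCL20 fell by 1.40 (SE 0.28, adjusted p = 0.000112), from 88.5 ± 19.0 to 32.5 ± 3.39. CCL2 fell from 186 reads over 3 libraries to 1 (log2 fold change −5.36, adjusted p = 5.16e-10), a read ratio, scaled for library size, of 106 with a counting interval from 18.7 to 4199. CCL2 passed the filter through its parental libraries, where it is high, since 1 of the 9 OlaR libraries reached 10. Its call and its part in the counts above are thus given as descriptions. CXCL2 (0.39, adjusted p = 0.0496) and CCL5 (−0.47, adjusted p = 0.000787) stayed within 2-fold, and CXCL3 was at −0.29 (adjusted p = 0.0513).

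Against untreated parental cells, a comparison added after the data were seen, 2 genes were called in OlaR cells, both lower, against 23% of all genes. The share of the 9 genes was thus close to that of all genes. The libraries of 5 of them did not overlap, against 59.8% of all genes. CXCL10 fell by 2.64 (adjusted p = 5.25e-16) and CCL2 from 105 reads to 1 (ratio 63.6, counting interval from 11.2 to 2535). Here too CCL2 passed the filter through its parental libraries, where it is high, so its call is given as a description. CXCL1 stood at 0.98 (adjusted p = 4.33e-09), passing the fold limit in 3 of the fits without 1 library (1.00 without OlaR replicate 2, 1.03 without control replicate 1 and 1.14 without control replicate 2). CXCL8 stood at 0.82 (adjusted p = 1.51e-05) and CXCL3 at −0.83 (adjusted p = 8.69e-07), which reached −1.02 without control replicate 3. CCL20 was at −0.08, with a 95% confidence interval from −0.65 to 0.49. Both comparisons use the same OlaR libraries.

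Some genes listed as markers of other cell types also lay lower in OlaR SUM1315 cells, as CXCL10 and CCL2 did. The summed adjusted read count of 12 leukocyte and stromal markers was 609 to 1018 in parental and 179.7 to 304 in OlaR SUM1315 libraries. COL1A1 (132 to 796 over all SUM1315 libraries) and PECAM1 (45.0 to 207) made up most of it, so the sum mostly follows these genes. PTPRC, CD3E, CD79A, MS4A1, LYZ, FCER1G, COL1A2 and LUM had a median of 0. Of the 12 markers 3 were tested, and 2 were called lower in OlaR cells against olaparib (16.6% of all genes). Whether other cells were present, and whether the lower markers have a part in the levels of CXCL10 and CCL2, was not tested.

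**Figure D2:**
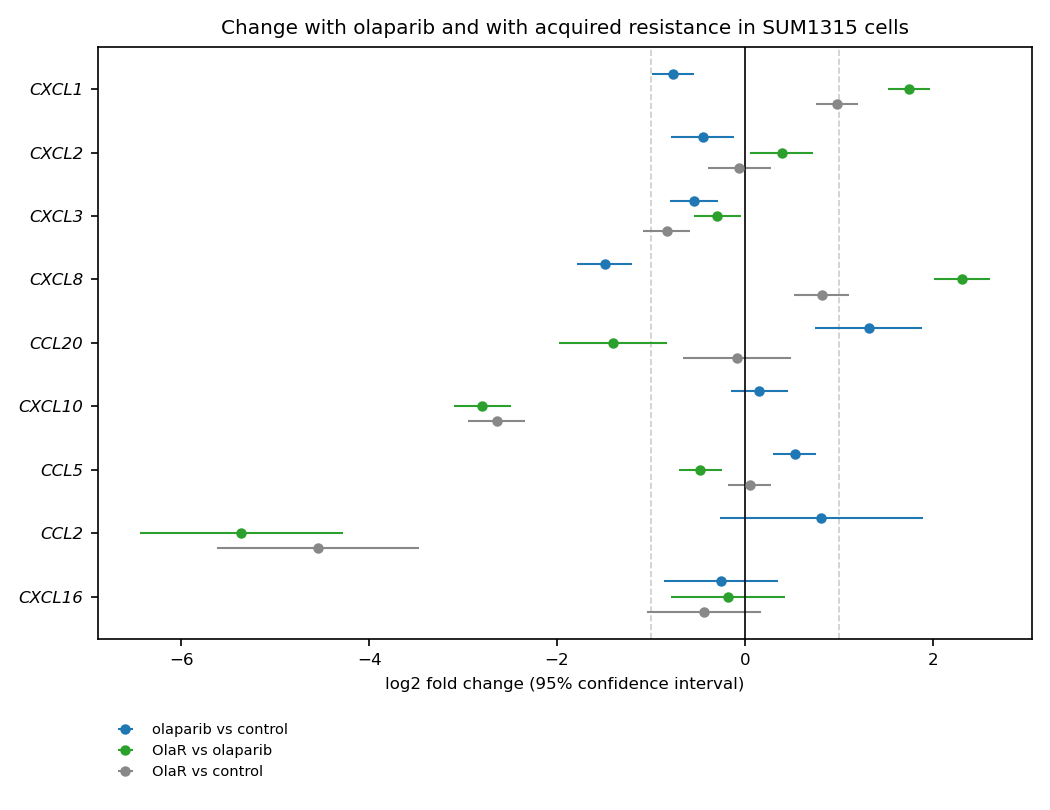
Log2 fold changes (points) with 95% confidence intervals (lines) of 9 chemokine genes in SUM1315 for olaparib against control, OlaR against olaparib and OlaR against control; dashed lines mark 2-fold, and the 3 comparisons share libraries. CXCL8 lies at −1.49 with olaparib and at 2.31 in OlaR cells, and CXCL10 and CCL2 lie far to the left in both OlaR comparisons.

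CDDP was then added to OlaR cells. At 4 µM, 2 of the 9 genes were called, both higher, against 3.82% of all genes, and 7 did not overlap, against 35.1%. CCL20 rose 2.57-fold (log2 fold change 1.36, SE 0.28, adjusted p = 0.000863), from 32.5 ± 3.39 to 87.5 ± 28.0. CXCL1 rose 2.01-fold (1.01, SE 0.11, adjusted p = 4.74e-08), so close to the fold limit that it fell below it in 3 of 6 fits without 1 library (0.99 without OlaR replicate 2 or 3, 0.96 without OlaR + CDDP replicate 1). CXCL3 (0.87, adjusted p = 6.08e-06), CXCL16 (0.85, adjusted p = 0.0459), CXCL8 (0.60, adjusted p = 0.00405) and CXCL2 (0.51, adjusted p = 0.0288) stood higher within 2-fold. At 2 µM, limma called none of the 9 genes, against 0.533% of all genes, with 5 at an unadjusted p under 0.05 and none by limma voom. There, CXCL1 was at 0.95 (adjusted p = 7.76e-06) and CXCL3 at 0.55 (adjusted p = 0.0138), and CCL2, with 0, 4 and 8 reads, was called only without OlaR + CDDP replicate 1 (2.57, adjusted p = 0.0048).

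The change with 4 µM CDDP was compared between OlaR cells and parental cells given olaparib, both of which were exposed to olaparib. It differed for 3 of the 9 genes, all smaller in OlaR cells, against 6.4% of all genes with no fold limit. The difference was −1.33 (SE 0.21, adjusted p = 0.000102) for CXCL8, −1.27 (SE 0.16, adjusted p = 4.15e-06) for CXCL1 and −0.84 (SE 0.17, adjusted p = 0.00257) for CXCL3. For CXCL2 it was −0.69 (adjusted p = 0.0684), and −0.84 (adjusted p = 0.0367) without olaparib replicate 2. For CCL20 it was −0.06, with a 95% confidence interval from −0.86 to 0.75, an interval that reached the difference found for CXCL3. CXCL1 and CXCL8 started from higher levels in OlaR cells (1117 ± 45.6 against 331 ± 18.5, and 7364 ± 765 against 1497 ± 279), whereas CXCL3 started lower (587 ± 30.0 against 720.4 ± 70.2).

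**Figure D3:**
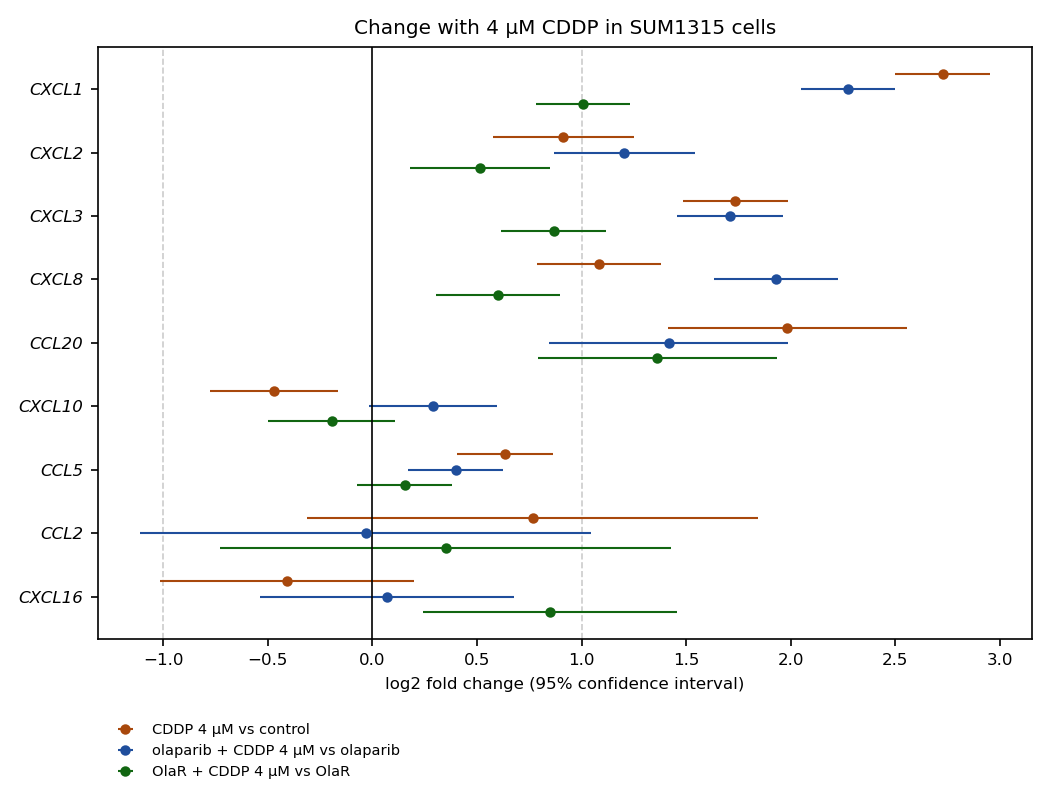
Log2 fold changes (points) with 95% confidence intervals (lines) of 9 chemokine genes with 4 µM CDDP in SUM1315, against control, against olaparib and in OlaR cells against OlaR; dashed lines mark 2-fold. CXCL1 lies at 2.73, 2.27 and 1.01 in the 3 backgrounds, while the intervals of CCL20 (1.98, 1.42 and 1.36) overlap.

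MDA-MB-468 cells held few reads of these genes. CXCL16 was the exception, with 58 to 137 reads in every library. Its adjusted read counts were 62.1, 76.3 and 64.0 in control, 54.3, 84.6 and 68.4 with olaparib, and 62.1, 57.1 and 52.9 at 2.5 µM CDDP. They were 115, 139.6 and 143 in OlaR cells and 159.8, 139 and 152 in OlaR cells with 2.5 µM CDDP. All 9 OlaR libraries (115 to 168) lay above all 18 parental libraries (45.0 to 97.7). The log2 fold change in OlaR cells was 0.95 (SE 0.20, adjusted p = 7.00e-05) against olaparib and 0.96 (SE 0.20, adjusted p = 5.29e-05) against control, just under 2-fold. It passed that limit without OlaR replicate 1 (1.04 and 1.06), without olaparib replicate 2 (1.10) or without control replicate 2 (1.05). Its neighbouring conditions overlapped in 7 of 8 pairs, the exception being the step from olaparib with 2.5 µM CDDP (70.4 ± 23.8) to OlaR (133 ± 14.9).

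CXCL8 in MDA-MB-468 was read 0, 0 and 0 times in control, 3, 0 and 0 with olaparib, and 13, 2 and 16 at 2.5 µM CDDP. In OlaR cells it was read 3, 10 and 5 times alone, 4, 5 and 6 times with 1 µM CDDP, and 15, 28 and 11 times with 2.5 µM. Of the 2 genes tested, CXCL8 was the only one called at 2.5 µM CDDP (log2 fold change 2.70, SE 0.73, adjusted p = 0.00388), against 2.59% of all 13012 genes. Against 0 reads in control, 31 reads amounted to an at least 10.4-fold higher level, with the floor set at 3 reads over the group. CXCL8 reached the filter value of 10 in 5 of 27 MDA-MB-468 libraries, 3 of OlaR with 2.5 µM CDDP, 1 of OlaR and 1 of 2.5 µM CDDP, so it was tested only through groups where it is high. In fits of only the groups compared it failed the filter, and this call and those in OlaR cells against olaparib and against control ended. CXCL8 was also the only one called in OlaR cells against olaparib (2.39, SE 0.73, adjusted p = 0.00476), against 14.3% of all genes, with 18 reads against 3, a ratio of 10.5 with a counting interval from 3.08 to 55.9. In OlaR cells against control, an added comparison, CXCL8 was the 1 gene called, against 15% of all genes, at least 10.2-fold higher.

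In OlaR cells with 2.5 µM CDDP against OlaR cells, CXCL8 was again the 1 gene called, against 2.39% of all genes (log2 fold change 1.96, SE 0.73, adjusted p = 0.0498), with 54 reads against 18 (ratio 4.03, counting interval from 2.33 to 7.31). All 3 libraries of the higher group reached 10, against 1 of 3 in OlaR cells alone. The filter was thus passed through the higher group, which favoured this call. That call was lost in 5 of the 6 fits without 1 library (all but the fit without OlaR replicate 2), with 1.64 (adjusted p = 0.186) without OlaR replicate 1, and with the replicate number as a block (adjusted p = 0.0515). With these depths, the order of the MDA-MB-468 conditions for CXCL8 by mean log2 level was resolved at 1 of 8 steps, the last one, up to OlaR with 2.5 µM CDDP (29.1 ± 5.13). OlaR with 1 µM CDDP (7.26 ± 2.47) and OlaR alone (7.28 ± 4.08) stood below it and overlapped each other. Counting intervals and floors cover counting error only.

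In the other MDA-MB-468 comparisons limma called neither gene. The share of all genes called was 1.74% for olaparib against control, 1.83% for 1 µM CDDP against control, 0.177% and 1.91% for 1 and 2.5 µM CDDP added to olaparib, and 0.392% for 1 µM CDDP added to OlaR cells. In these 5 comparisons neither gene had an unadjusted p under 0.05, and limma voom called none. For olaparib with 2.5 µM CDDP against 2.5 µM CDDP alone, 0.438% of all genes were called. There, CXCL8 was at −1.74 (unadjusted p = 0.0201, adjusted p = 0.113), was called by limma voom, and was called without CDDP replicate 2 (−2.54, adjusted p = 0.0283). The change with 2.5 µM CDDP did not pass as different between OlaR and olaparib-treated cells (15% of all genes; CXCL8 1.55, 95% confidence interval from −0.51 to 3.61; voom none, none at an unadjusted p under 0.05). Nor did it pass between olaparib-treated and control cells (20.2% of all genes; CXCL8 −2.28, unadjusted p = 0.0305, adjusted p = 0.113; voom none), except without CDDP replicate 2 (−3.08, adjusted p = 0.0305).

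The other genes were at or near 0 in MDA-MB-468. The most reads in any library were 13 for CXCL3, 12 for CCL20, 8 for CXCL10, 6 for CXCL1, 4 for CXCL2, and 2 for CCL2, CCL5 and CXCL5. CXCL3 and CXCL8 were each read in 20 of 27 libraries, CXCL2 in 14, CCL20 in 13, CXCL1 in 6, CXCL10 and CCL5 in 5 and CCL2 in 2. CXCL3 reached 14.8 adjusted reads in 1 OlaR library with 1 µM CDDP, and the other 2 of that condition held under 2.

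**Figure D4:**
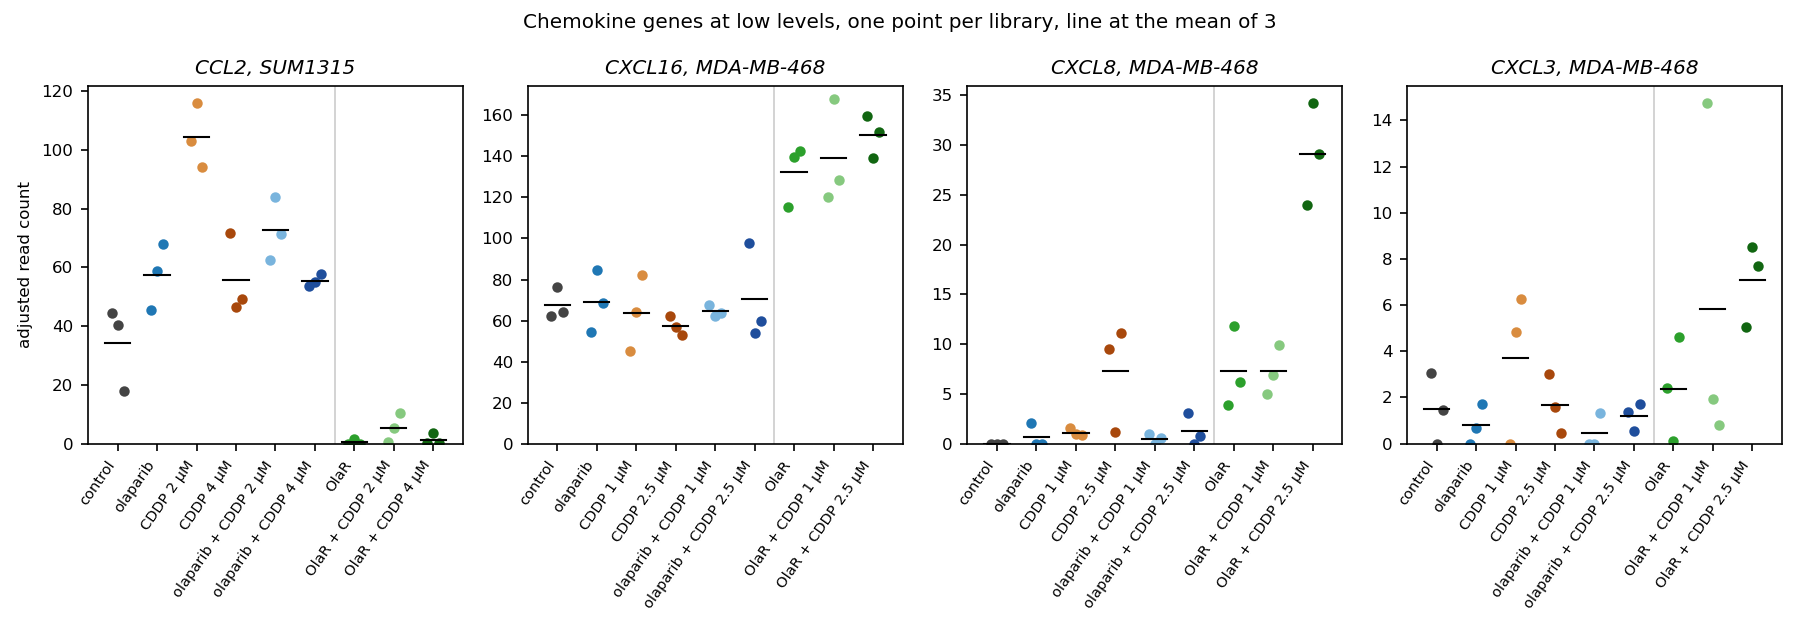
Adjusted read counts (linear axes) of CCL2 in SUM1315 and of CXCL16, CXCL8 and CXCL3 in MDA-MB-468, 1 point per library with a line at the mean of 3; the grey line separates parental from OlaR cells. CCL2 lies near 0 in OlaR cells, CXCL16 lies higher in all OlaR libraries (115 to 168), and CXCL8 and CXCL3 stay below 35 and 15 in MDA-MB-468.

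Untreated cells of the lines were compared in a fit of all 54 libraries and 14460 genes. Of the 9 genes tested, 8 were higher in SUM1315, and 45.7% of all genes were called in either direction. Of those 8, all but CXCL8 reached 10 in at most 1 MDA-MB-468 library and so passed the filter through SUM1315, where they are high. Their direction was thus fixed by the filter, and the count is given as a description. Summed over the 3 libraries, CXCL8 had 12792 reads in SUM1315 and 0 in MDA-MB-468 (at least 5891-fold higher after scaling for library size), CXCL10 had 3071 and 0 (at least 1414-fold), CCL5 had 1264 and 0 (at least 582-fold) and CCL2 had 105 and 0 (at least 48.4-fold). CXCL1 had 1760 and 1, CXCL2 had 4029 and 4 (ratio 1392, counting interval from 543 to 5110), CXCL3 had 3272 and 6 (ratio 753, 346 to 2055) and CCL20 had 114 and 5 (ratio 31.5, 13.1 to 98.9). CXCL16 alone was not higher in SUM1315, with 128 reads against 284 (ratio 0.623, 0.501 to 0.770, log2 fold change −0.76, adjusted p = 0.00513). It passed the fold limit without SUM1315 control replicate 1. Libraries were multiplexed in batches of 27 and which ones shared a batch is not stated, so a sequencing batch and the line cannot be told apart.

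Differences between the lines in the size of a change were tested with no fold limit, at each line's own doses. They rest on MDA-MB-468 values near 0 for every gene but CXCL16. All but CXCL8 and CXCL16 reached 10 in at most 1 of 27 MDA-MB-468 libraries, so they passed the filter through SUM1315. The counts that follow are thus given as descriptions. For CCL2 in OlaR cells against olaparib the MDA-MB-468 change was 0, so its difference restates the change in SUM1315. For OlaR against olaparib, 7 of the 9 genes differed, 2 with the larger log2 fold change in SUM1315 (CXCL1 and CXCL2) and 5 with the smaller (CCL20, CXCL10, CXCL16, CCL2 and CCL5), against 41.7% of all genes. limma voom called 4 of them (CCL20, CXCL10, CXCL16 and CCL2), and 5 to 7 were called without 1 library. For CXCL16, which was well read in both lines, the difference was −1.13 (SE 0.35, adjusted p = 0.00712), from −0.18 in SUM1315 and 0.95 in MDA-MB-468. For olaparib against control 2 genes differed (19.9% of all genes), for the higher CDDP dose against control 2 (27.5%), and for CDDP added to OlaR cells 1 (5.44%). For the first 2 of these the share of the 9 genes was close to that of all genes. limma voom called none in any of the 3, and without 1 library the counts ranged from 0 to 3, 1 to 3 and 0 to 1. For the higher CDDP dose added to olaparib limma called none (1.87% of all genes), with CXCL1 and CXCL8 at an unadjusted p under 0.05 and none by limma voom. In that comparison CXCL1 (2.57, adjusted p = 0.00153) was called without MDA-MB-468 combination replicate 3 and CXCL8 (2.05, adjusted p = 0.0469) without combination replicate 1.

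The wider chemokine system was followed through fixed lists, beside which the median log2 fold change over all genes tested stayed between −0.05 and 0.01 in the SUM1315 comparisons. Of 22 NF-κB factors and feedback genes, 21 were tested in SUM1315. With 4 µM CDDP alone 4 rose and none fell, a share near the 15.4% of all genes called. With 4 µM CDDP added to olaparib 3 rose (1.32% of all genes), with 2 µM CDDP alone or added to olaparib 1 rose (8.79% and 0.495%), and in OlaR cells 2 rose at 4 µM (3.82%). TRAF1, a TNF receptor adaptor, rose from 14.0 to 60.1 when 4 µM CDDP was added to olaparib (log2 fold change 2.17, SE 0.34, adjusted p = 5.28e-05) and from 23.4 to 52.8 in OlaR cells (1.10, adjusted p = 0.0219). BIRC3, an inhibitor of apoptosis, rose from 448 to 1279 (1.51, SE 0.13, adjusted p = 1.68e-10) and from 277 to 569 (1.05, adjusted p = 2.74e-07). The study had already reported BIRC3, TRAF1 and CCL20, from these same libraries, among its top CDDP genes of parental and OlaR SUM1315 cells. Their rises, and the counts that hold them, are thus not independent of that report. The list medians were 0.41 and 0.25. With olaparib alone 1 of these genes fell (9.35% of all genes), in OlaR cells against olaparib 1 rose (16.6%), and in OlaR cells against control 1 rose and 3 fell (23%), in each case a share below that of all genes.

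Of 18 upstream cytokines and receptors, all tested in SUM1315, 1 rose and 5 fell with olaparib (9.35% of all genes called), 2 rose with 2 µM CDDP (8.79%), 5 rose with 4 µM CDDP (15.4%), and 3 rose on adding 4 µM CDDP to olaparib (1.32%). In the latter comparison IL6, an inflammatory cytokine, rose from 404 to 1410 (log2 fold change 1.82, SE 0.26, adjusted p = 1.74e-05), and CSF2, which encodes the growth factor GM-CSF, rose from 1.89 to 19.2 (2.97, SE 0.63, adjusted p = 0.00212). In OlaR cells at 4 µM CDDP 2 rose and 1 fell (3.82% of all genes). LIF, a cytokine of the interleukin-6 family, rose from 55.6 to 121 (1.11, adjusted p = 0.024), and IL17RC, a subunit of the interleukin-17 receptor, fell by 1.66, from 50.1 to 15.0 (adjusted p = 0.000547). In OlaR cells 3 rose and 2 fell against olaparib (16.6% of all genes), and 1 rose and 3 fell against control (23%).

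The interferon axis list moved with olaparib, CDDP and resistance. Of 16 genes tested of 18, 7 rose and none fell with olaparib (list median 0.72, 9.35% of all genes called), 6 rose with 2 µM CDDP (0.96, 8.79%) and 8 rose with 4 µM CDDP (1.22, 15.4%). The 7 that rose with olaparib, named after their values were seen, were the regulators IRF7 and STING1 and the interferon-induced genes ISG15, IFIT1, IFIT2, IFIT3 and OAS1. In OlaR cells against olaparib 7 fell and none rose (IRF7, IRF9, the RNA sensors DDX58 and IFIH1, IFIT1, IFIT2 and IFIT3; median −0.97; 16.6% of all genes), and against control 2 rose (ISG15 and OAS1) and 3 fell (IRF1, DDX58 and IFIT2; 23%). Neither adding CDDP to olaparib nor adding it to OlaR cells moved any of them past the test, at either dose. In the test of the difference, with no fold limit, the change with 4 µM CDDP was lower with olaparib than without it for 8 of the 16 genes. It was higher for none (median −0.73, 21.5% of all genes). The comparisons against control all use control replicate 3, which stood apart over all genes. CXCL10 itself, with log2 fold changes of 0.15 and −0.47 with olaparib and 4 µM CDDP, was not called in either, and fell in OlaR cells against olaparib and against control.

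Of 27 other chemokines, 4 were tested in SUM1315. With 2 and 4 µM CDDP 2 and 3 rose, and with 4 µM CDDP added to olaparib 1 rose, CX3CL1, the membrane-bound chemokine fractalkine (95.3 to 209, log2 fold change 1.14, adjusted p = 0.000105). OlaR cells against olaparib had 2 higher and 1 lower, and the same counts held against control. With 4 and 5 genes tested, shares of these lists and of the receptors are too coarse to set beside those of all genes. Of 23 chemokine receptors 5 were tested, and 1 fell with olaparib, 1 fell at 2 µM CDDP, 1 rose and 1 fell at 4 µM, 1 rose and 1 fell in OlaR cells against olaparib, and 2 rose and 2 fell against control. The 1 that fell with 4 µM CDDP in OlaR cells was the decoy receptor ACKR4, at levels of 4.39 and 0.490. Of 7 genes of mRNA decay and shedding, 1 rose with 4 µM CDDP (15.4% of all genes called) and 1 fell in OlaR cells against control (23%). In MDA-MB-468 each list had at most 4 genes higher or lower in any comparison. The most were in OlaR cells against control, where 15% of all genes were called. There, 1 other chemokine rose and 3 fell of 5 tested, and 1 receptor rose and 2 fell of 4. Of 15 interferon axis genes 3 rose and 1 fell, and the other lists had at most 1 called. NFKB2, a subunit of NF-κB, was the 1 gene of these lists called with 2.5 µM CDDP in OlaR cells (16.9 to 48.4, log2 fold change 1.49, SE 0.30, adjusted p = 0.000226).

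The genes were also described by the likeness of their pattern over the 9 condition means of SUM1315. Among the set, the log2 means of CXCL1 followed those of CXCL2 (Pearson r = 0.89) and CXCL8 (r = 0.86), those of CXCL2 followed CXCL3 (r = 0.83), and those of CXCL10 followed CCL2 (r = 0.95). CXCL8 and CXCL10 ran in opposite directions (r = −0.69), and CCL20 and CXCL8 showed no common course (r = 0.015). Among 9441 other genes, the pattern most like CCL20 was that of TMEM123 (r = 0.954), then SP3 (0.945) and C6orf62 (0.934). The closest was CDC25A for CXCL1 (0.988), PTGS2 for CXCL2 (0.953), C11orf96 for CXCL3 (0.990), JUN for CXCL8 (0.970), ZBTB41 for CXCL10 (0.996), WASHC2A for CXCL16 (0.936), RARRES3 for CCL2 (0.994) and IFI6 for CCL5 (0.975). In MDA-MB-468, with 9356 genes compared, it was EP300-AS1 for CXCL8 (0.965) and KRIT1 for CXCL16 (0.998). These values describe 9 condition means each and carry no test.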

How the data were processed

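Total RNA of 54 libraries was sequenced from the 3′ end (QuantSeq FWD kit). Per the submitters' processing notes, reads were demultiplexed with CASAVA 1.8.2, checked with FastQC, aligned to hg38 with STAR, counted with HTSeq and handled with edgeR. The deposited values are a signal, reads per gene that the authors adjusted within each condition to a common library size of 5585170 reads with edgeR's negative binomial method (dispersion 0.01039). They are not whole numbers. The whole reads behind them were recovered here by inverting that adjustment and give the depth of each library. A library without a read of a gene can hold a small positive adjusted value, so levels near 0 are given as reads. The authors also deposited tables of fold changes, p-values and FDR against control, which were not used. Spreadsheet dates stand in place of 27 gene names, and 4082 genes had no read. None of these is one of the 10 genes.

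In each line, limma 3.58.1 (R 4.3.3) was fitted with an intensity trend to log2(adjusted read count + 1) over all 27 libraries, for genes that reached 10 in 3 or more libraries, and over all 54 libraries for comparisons between lines, 30 comparisons in all. Benjamini-Hochberg adjustment ran over all genes tested. A gene was called at an adjusted p of at most 0.05 and a 2-fold change, with no fold limit for differences of changes. Ratios of reads carry exact binomial 95% intervals. The script was tested on simulated data. Replicate libraries differed beyond sampling noise in all 54 pairs (chi-square per degree of freedom 1.59 to 20.6, median 3.19), so none was merged. Replicate numbers did not pair the libraries.

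The 10 genes and the gene lists were chosen with earlier results of these data known. All 10 genes are described. Of each list, at most 2 called genes of largest change are named in the comparisons of the higher CDDP dose added to olaparib or OlaR, and the interferon genes were named after their values were seen. The gene most like each chemokine gene was taken from genes with a mean of at least 50. Alternatives were no filter, a pseudocount of 5, median-of-ratios scaling, limma voom on the recovered reads, the replicate block, fits of only the groups compared, no fold limit, and leaving out each library. The protocols give 2.5 µM as the higher MDA-MB-468 CDDP dose and the series text 2 µM, and the sample titles (2.5 µM) were followed. The kit named for RNA extraction differs between the sources.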

Additional observations from a re-analysis of the deposited data

Results flagged for a closer look

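Several changes differed between backgrounds of SUM1315 in a test of the difference itself. Against parental cells given olaparib, the log2 change with 4 µM CDDP in OlaR cells was smaller for CXCL8 (difference −1.33), CXCL1 (−1.27) and CXCL3 (−0.84). Against control cells, the rise with 4 µM CDDP under olaparib was larger for CXCL8 (0.85) and smaller for CXCL1 (−0.45). That CXCL1 value was −0.24 without control replicate 3. For CXCL10 the difference was 0.76, from −0.47 in control cells to 0.29 under olaparib.

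Other changes differed between the lines, as SUM1315 minus MDA-MB-468. Apart from CXCL16, these genes had few or no reads in MDA-MB-468, and changes of a few reads there enter the values. All but CXCL16 and CXCL8 passed the filter through SUM1315. With olaparib against control, the difference was 2.23 for CCL20 and −2.04 for CXCL8, neither called by limma voom. With the higher CDDP dose against control, it was 2.73 for CXCL1 and −1.62 for CXCL8, the latter from a change of 1.08 in SUM1315 and 2.70 in MDA-MB-468. That CXCL8 value was −0.09 with a pseudocount of 5, and limma voom called neither gene (adjusted p = 0.0656 and 0.128). In OlaR cells against olaparib, it was 2.05 for CXCL1, 1.66 for CXCL2, −2.17 for CCL20, −3.18 for CXCL10, −1.13 for CXCL16, −5.36 for CCL2 and −1.17 for CCL5. The change within SUM1315 was 0.39 for CXCL2 and −0.47 for CCL5, so that most of these came from MDA-MB-468, and limma voom called neither of them, nor CXCL1. With the higher CDDP dose added to OlaR cells, it was −1.78 for CXCL10, from −0.19 in SUM1315 and 1.59 in MDA-MB-468, and limma voom did not call it.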

How the results depend on the processing

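Of 54 called values, 51 were kept without the filter on low values, 52 with a pseudocount of 5, 53 with median-of-ratios scaling, 52 with the replicate block, 46 with limma voom on the recovered reads and 47 in fits of only the groups compared, where 3 could not be tested, and none of these reversed. The 54 include the 8 calls between untreated lines, whose direction was fixed by the filter. They also include other calls between lines, most of which rest on MDA-MB-468 values near 0. Scaling moved the median of all genes by at most 0.05. For values of at least 10, adjusted read counts and reads scaled for library size differed by at most 8.31%. The difference between lines for CXCL8 in OlaR cells against olaparib, −0.08 and not called, reversed to 1.23 with a pseudocount of 5, and that at the higher CDDP dose went from −1.62 to −0.09, with CXCL8 near 0 reads in MDA-MB-468. Same-numbered libraries deviated together with correlations from −0.098 to 0.163 in SUM1315 and −0.047 to 0.043 in MDA-MB-468, so they share only a number. The replicate block took the count in MDA-MB-468 for 2.5 µM CDDP added to OlaR cells from 1 to 0, and between lines it ended the call of CCL5 in OlaR cells (adjusted p = 0.0573).

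Counts of called genes moved as follows. In SUM1315, removing the fold limit took them from 2 to 6 with olaparib, 3 to 6 and 4 to 7 with 2 and 4 µM CDDP, 0 to 3 with 2 µM CDDP added to olaparib, 1 to 4 with olaparib added to 4 µM CDDP, 0 to 2 and 2 to 6 with 2 and 4 µM CDDP added to OlaR cells, and 2 to 5 in OlaR cells against control. The share of all genes called rose as well, in the same order to 36%, 33.9%, 43.9%, 3.76%, 12.8%, 1.42%, 16.7% and 54.7%. In MDA-MB-468 it took OlaR cells against olaparib and against control from 1 to 2 (51.5% and 53.5% of all genes). Requiring a difference of at least 1 left 0 of the 3 differences in the CDDP response with olaparib (8.07% of all genes). Median-of-ratios scaling took 2 µM CDDP added to olaparib from 0 to 1 (CXCL1). Without the filter, MDA-MB-468 counts went from 1 to 2 for 2.5 µM CDDP added to OlaR cells and from 0 to 1 for 2.5 µM CDDP added to olaparib (CCL20), and the difference between lines with olaparib from 2 to 1. In fits of only the groups compared, CXCL8 in MDA-MB-468 failed the filter, so the counts for 2.5 µM CDDP, OlaR against olaparib and OlaR against control went from 1 to 0, and between lines those for CDDP went from 2 to 1 and for CDDP added to OlaR cells from 1 to 2. Between lines, voom gave 0 for olaparib, 0 for CDDP, 4 for OlaR against olaparib and 0 for CDDP added to OlaR cells, and 1 (CXCL8) in MDA-MB-468 for olaparib added to 2.5 µM CDDP. A pseudocount of 5 gave 5 between lines for CDDP and 4 for CDDP added to olaparib. All genes gained there but CXCL8 passed the filter through SUM1315. Except for the limits on fold change or difference, no share of all genes is given for these settings or for fits without 1 library. Those counts are thus descriptions, with no background to set them beside.

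Without 1 library, SUM1315 counts ranged from 0 to 1 for 2 µM CDDP added to olaparib or OlaR cells, 1 to 2 for 4 µM CDDP added to OlaR cells and for olaparib added to 4 µM CDDP, and 3 to 5 for 4 µM CDDP. MDA-MB-468 counts ranged from 1 to 2 in OlaR cells against olaparib or control, and 0 to 1 for 2.5 µM CDDP added to OlaR cells, for olaparib added to 2.5 µM CDDP and for the difference in CDDP response with olaparib. Between lines they ranged from 0 to 3 for olaparib, 1 to 3 for CDDP, and 0 to 1 for CDDP added to olaparib or OlaR cells. The planned edgeR and DESeq2 fits were not run, since the deposited values are not counts. Depth limits every MDA-MB-468 value but that of CXCL16.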
